A study of Mus musculus with 6 samples.

Results

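The genes of the cholinergic neuron and the muscarinic acetylcholine receptors were examined in mouse forebrain after acute water avoidance stress (WAS). The 9 genes were Chat, Slc5a7, Slc18a3, Ache and Chrm1, Chrm2, Chrm3, Chrm4 and Chrm5, taken by symbol from the deposited tables, where each had 1 of the 23282 entries. All animals were adult male C57BL/6J mice. The 3 WAS mice spent 1 h on a small platform surrounded by water, and the 3 control mice spent 1 h on the platform in a dry basin. Brains were taken directly afterwards, and 1 forebrain hemisphere per mouse, without olfactory bulb and cerebellum, was sequenced by QuantSeq, which reads transcripts next to the poly(A) tail. Counts are therefore not divided by transcript length.

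The libraries labelled WAS held between 9248520 and 10067053 counts, and those labelled control between 9977945 and 10502029. Levels are given as raw counts, in the order of replicates 1, 2 and 3, and as CPM, which scales a count to the library total. Differences are log2 fold changes of the libraries labelled WAS over those labelled control, from the quasi-likelihood test of edgeR, with p-values adjusted by Benjamini-Hochberg over 15237 genes. The count columns inside the tables were headed WC in the libraries labelled WAS and WS in those labelled control. The headings are not defined in the sources used here. Groups follow the labels, so exchanged labels would reverse every direction given.

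Acetylcholine is made in cholinergic neurons by choline acetyltransferase (Chat) from choline that the high-affinity transporter Slc5a7 brings into the terminal. The vesicular transporter Slc18a3 loads it into vesicles, and acetylcholinesterase (Ache) breaks it down after release. In the forebrain, cholinergic neurons are found in the septum and basal forebrain and as interneurons of the striatum. Muscarinic receptors are G protein-coupled receptors: Chrm1, Chrm3 and Chrm5 act through Gq and phospholipase C, and Chrm2 and Chrm4 through Gi and Go.

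The libraries differed in the levels of regional marker genes. The summed level of 10 striatum markers was 183 CPM in WAS replicate 1 and 414 CPM in WAS replicate 3, against 2130.2 CPM in WAS replicate 2 and between 1064 and 1457 CPM in the control libraries. The summed level of 10 midbrain and hindbrain markers was 51.5 CPM in WAS replicate 1 and 79.4 CPM in WAS replicate 3, against between 3.66 and 5.52 CPM in the other libraries. Of 4 cerebellum markers, Gabra6 was at 0 or 1 count in each library, Fat2 at 0 to 2, Cbln3 at 6 to 10 and Pcp2 at 191 to 252. Drd2, known from striatal neurons, was also at 0 or 1 in each library, so a low count was not read as absence of a transcript. In bulk tissue, fewer cells of a type and less RNA per cell cannot be told apart.

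Chat (chr14:32408203-32465989, minus strand, GRCm38) carries Slc18a3 (chr14:32462438-32464850, minus strand) inside its span, in an intron, and Slc5a7 (chr17:54273590-54299034, minus strand) lies on another chromosome. The promoter windows of these genes are shown because their counts varied together between libraries. Each window of 300 bases from the RefSeq table of GRCm38.p6 runs from 250 bases before to 50 after the start of the transcript and is printed in the direction of transcription. Capitals mark 3 motifs on either strand: the core of cyclic AMP response elements (TGACG or CGTCA), a core of LIM homeodomain sites (TAATTA) and the GC box (GGGCGG or CCGCCC).
Chat chr14:32465860-32466159: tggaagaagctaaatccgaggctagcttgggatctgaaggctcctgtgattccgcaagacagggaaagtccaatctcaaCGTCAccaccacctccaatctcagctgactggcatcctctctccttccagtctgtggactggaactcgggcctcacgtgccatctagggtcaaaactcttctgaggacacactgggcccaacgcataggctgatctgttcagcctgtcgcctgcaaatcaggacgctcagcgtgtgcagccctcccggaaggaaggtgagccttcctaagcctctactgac
Slc18a3 chr14:32464801-32465100: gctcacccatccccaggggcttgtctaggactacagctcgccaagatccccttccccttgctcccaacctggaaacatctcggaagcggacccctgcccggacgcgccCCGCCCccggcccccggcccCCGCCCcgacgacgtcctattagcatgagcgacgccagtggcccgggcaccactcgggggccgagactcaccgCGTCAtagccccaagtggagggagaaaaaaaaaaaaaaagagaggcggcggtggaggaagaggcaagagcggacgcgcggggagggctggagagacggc
Slc5a7 chr17:54298985-54299284: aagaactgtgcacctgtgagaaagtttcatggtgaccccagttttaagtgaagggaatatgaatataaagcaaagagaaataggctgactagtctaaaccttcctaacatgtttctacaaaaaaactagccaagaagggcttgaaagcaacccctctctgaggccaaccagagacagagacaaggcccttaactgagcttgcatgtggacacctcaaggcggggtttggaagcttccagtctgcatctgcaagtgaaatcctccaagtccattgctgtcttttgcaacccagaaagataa
The Chat and Slc18a3 windows lay 759 bases apart, and each held 1 copy of the cyclic AMP core. Slc18a3 also held 2 GC boxes, and Slc5a7 held none of the 3 motifs. Over all 32851 windows, 20.8% held the cyclic AMP core, 5.29% the LIM core and 35.7% the GC box. The capitals did not overlap each other. GC content was 55.7% in Chat, 67.0% in Slc18a3 and 44.7% in Slc5a7, against a median of 52.7% over all windows.

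Chat had 10, 182 and 66 counts in the libraries labelled WAS against 116, 92 and 230 in those labelled control. WAS replicate 1 was far below every other library, at 0.993 CPM with an exact 95% Poisson interval of 0.476 to 1.83, which covers counting error only. The groups overlapped because WAS replicate 2 was above control replicates 1 and 2. Mean levels were 9.09 ± 9.59 CPM (SD, n = 3) with WAS and 14.3 ± 7.64 CPM (SD, n = 3) in controls. The fit gave a log2 change of -0.71 (standard error, SE, 0.66, 95% interval -2.15 to 0.74, adjusted p = 0.893), so a difference of this size was within the spread between libraries.

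Slc18a3, which fills the vesicles, had 2, 33 and 17 counts in the libraries labelled WAS against 18, 27 and 31 in those labelled control. WAS replicate 1 was again the lowest and WAS replicate 2 the highest. The mean was 1.82 ± 1.69 CPM (SD, n = 3) against 2.47 ± 0.705 CPM (SD, n = 3) in the libraries labelled control. On the log2 scale the difference was -0.49 (SE 0.65, 95% interval -1.92 to 0.94, adjusted p = 0.939).

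Slc5a7, the choline transporter of the terminal, had 15, 182 and 65 counts in the libraries labelled WAS against 66, 54 and 95 in those labelled control. The same libraries were lowest and highest as for Slc18a3. The mean was 9.23 ± 9.39 CPM (SD, n = 3) with WAS against 7.0 ± 2.25 CPM (SD, n = 3) in controls. The fitted log2 change was 0.35 (SE 0.61, 95% interval -0.997 to 1.699, adjusted p = 0.953). Its sign depended on the method, at -0.30 with limma on quantile-normalized counts and -0.058 with the replicate number as a block.

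**Figure D1:**
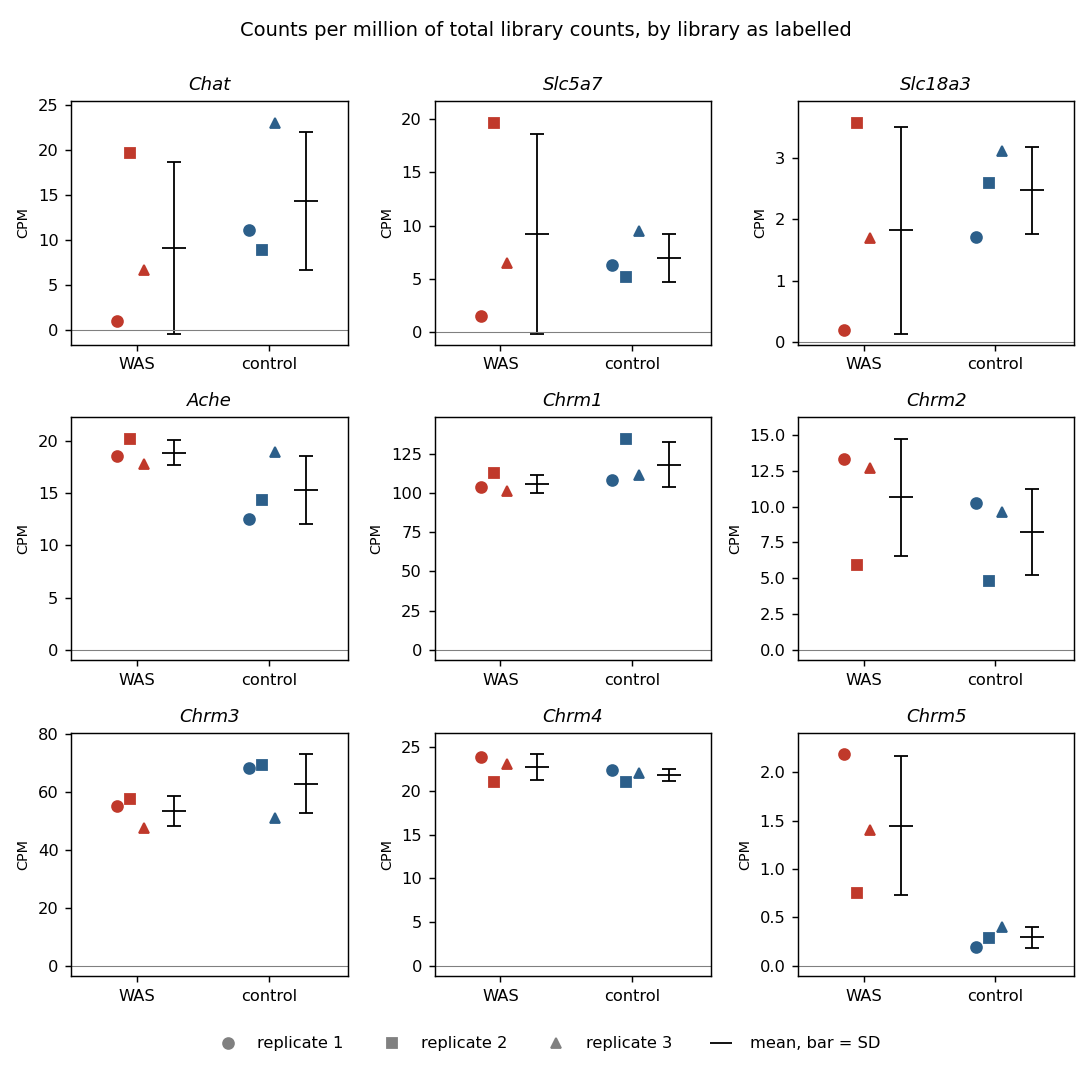
Level of each of the 9 genes in CPM (y axis, from 0) in the 3 libraries labelled WAS (red) and the 3 labelled control (blue). Symbols give the replicate, the dash is the mean and the bar the SD. Chat, Slc5a7 and Slc18a3 were lowest in WAS replicate 1, Chrm4 was nearly level, and Chrm5 was the 1 gene whose groups did not overlap.

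The spread of these 3 genes was among the widest of the data. The difference between the highest and the lowest library on the log2 CPM scale was 4.34 for Chat, a width exceeded by 24 of the genes tested (0.158%). It was 3.56 for Slc5a7, exceeded by 0.499% of the genes tested, and 3.24 for Slc18a3, exceeded by 0.768%. The fitted changes of these genes also depended on which libraries were kept. Without WAS replicate 2, Chat had a log2 fold change of -1.95 (unadjusted p = 0.00241, adjusted p = 0.0644) and Slc18a3 of -1.41 (unadjusted p = 0.0448), while Slc5a7 was at -0.85. Without WAS replicates 1 and 3 together, a setting chosen after seeing the data that leaves 1 library labelled WAS and assumes that it varies like the others, Chat was at 0.42, Slc18a3 at 0.49 and Slc5a7 at 1.45 (unadjusted p = 9.31e-05, adjusted p = 0.151).

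The genes with the profile most like that of Chat over the 6 libraries were Isl1, Dmkn and Penk. Likeness was measured as the root mean square difference between log2 CPM profiles centred on their own means, which was 0.35, 0.36 and 0.44. Isl1, a LIM homeodomain factor of cholinergic and other striatal neurons, had 1, 94 and 22 counts in the libraries labelled WAS against 41, 39 and 111 in those labelled control. Penk, the enkephalin precursor and a striatum marker, had 240, 3911 and 862 counts against 2160, 2489 and 2502. The difference between Chat and Slc18a3 was 0.47, and that between Chat and Slc5a7 was 0.60. The genes nearest to Slc5a7 were Crabp1, Nrn1l and Lpin3, at 0.32, 0.38 and 0.41, all with 38 counts or fewer in each library. Library totals are common to all these profiles, and the part of regional tissue content in the levels of Chat, Slc18a3 and Slc5a7 was not tested.

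**Figure D2:**
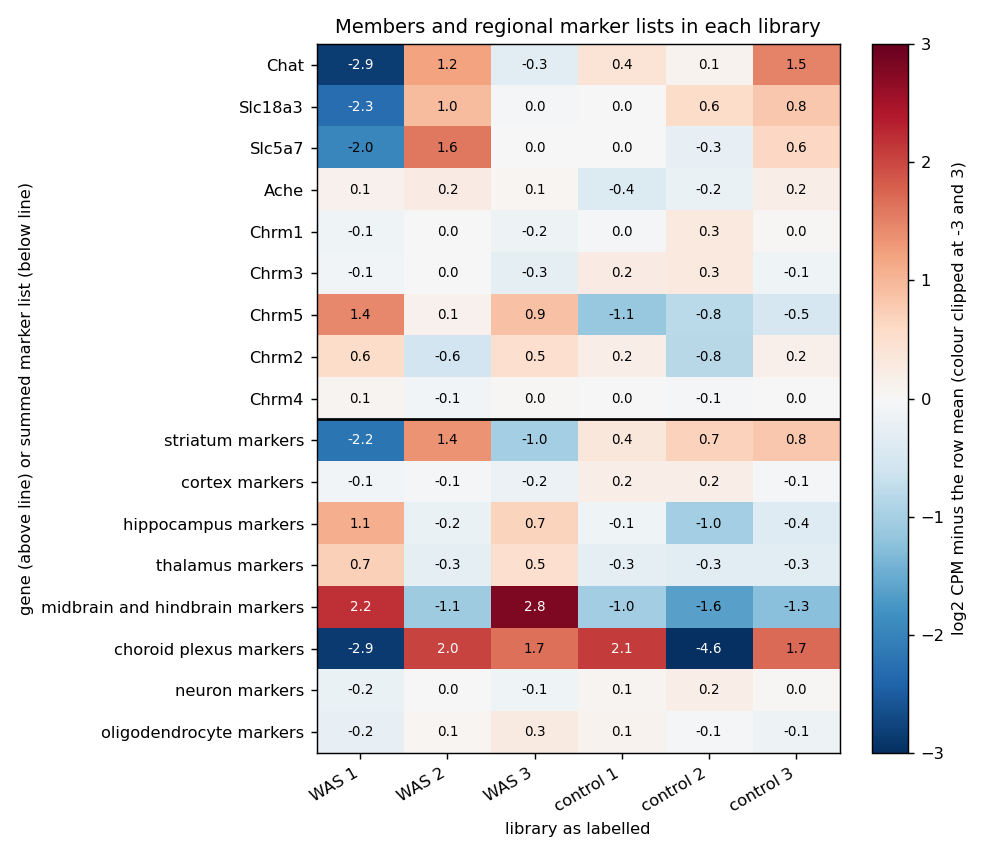
Log2 CPM of each gene, or of the summed level of a marker list, minus the mean of its row (colour and printed values), for the 6 libraries as labelled. Chat, Slc18a3, Slc5a7 and the striatum markers were lowest in WAS replicate 1, and the midbrain and hindbrain markers and Chrm5 were highest in WAS replicates 1 and 3.

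Relative to Chat, Slc5a7 was higher in each library labelled WAS than in any labelled control. There were 1.5, 1.00 and 0.985 counts of Slc5a7 per count of Chat in the libraries labelled WAS against 0.569, 0.587 and 0.413 in those labelled control. The mean ratio was 1.16 ± 0.293 (SD, n = 3) against 0.523 ± 0.0956 (SD, n = 3). This ratio was chosen after its values had been seen and is given without a test, and in WAS replicate 1 it rests on 15 and 10 counts. Slc18a3 per count of Chat overlapped between the groups, at 0.181 to 0.258 in the libraries labelled WAS and 0.135 to 0.293 in those labelled control. The last 500 bases of the longest Chat transcript share a stretch of 50 bases with transcripts of 85 other genes, and since multiple alignments were counted, Chat may hold reads of other genes. None of the other 8 genes shared such a stretch.

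**Figure D3:**
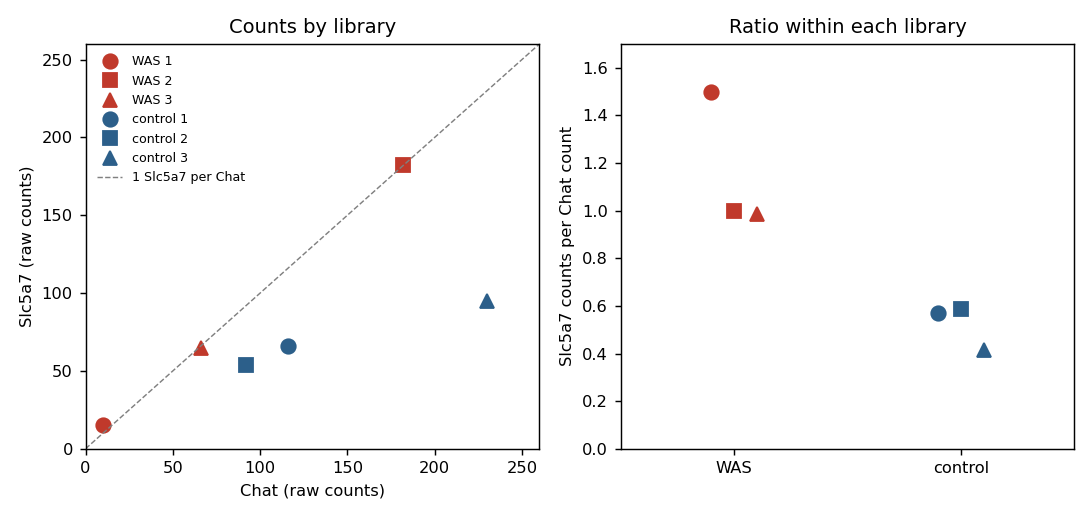
Left, raw counts of Slc5a7 (y axis) against Chat (x axis) in each library, with a dashed line at 1 count of Slc5a7 per count of Chat. Right, the same ratio by labelled group, between 0.985 and 1.5 in the libraries labelled WAS and between 0.413 and 0.587 in those labelled control.

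Ache (chr5:137287519-137294466, plus strand) did not follow the other presynaptic genes. It had 187, 187 and 178 counts in the libraries labelled WAS against 132, 149 and 189 in those labelled control. Control replicate 3 lay within the range of the libraries labelled WAS. The mean was 18.9 ± 1.22 CPM (SD, n = 3) against 15.3 ± 3.29 CPM (SD, n = 3), and the fitted log2 change was 0.27 (SE 0.17, 95% interval -0.11 to 0.64, adjusted p = 0.811). Without control replicate 3 the change was 0.46 (unadjusted p = 0.0190), still under a fold change of 1.5. In WAS replicate 1, Ache had 18.7 counts per count of Chat, against 0.822 to 2.70 in the other libraries. An exon of the noncoding gene Gm42456 on the opposite strand overlaps Ache, and it is not stated whether strand was used in counting.

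The criteria were a fold change of 1.5 or more together with p under 0.05 before adjustment. Of the 9 genes, 1 met the criteria, Chrm5, where 2.49% of all genes tested met them and 1.82% met them as higher and 0.676% as lower in the libraries labelled WAS. It was also the 1 gene of the 9 with an unadjusted p under 0.05, against 7.25% of all genes tested. None of the 9 passed an adjusted p of 0.05 by edgeR or limma, and none by DESeq2, which gave Chrm5 no adjusted p. Over all genes, 0 passed it by edgeR, 0 by limma and 22 by DESeq2, and 1104 had an unadjusted p under 0.05 by edgeR. Without WAS replicate 2, 491 genes passed the adjusted threshold by edgeR, among them Chrm5 of the 9. Groups did not overlap for 1 of the 9 genes, against 12.2% of all genes tested, 8.42% with WAS higher and 3.75% with WAS lower. Without WAS replicate 2, 4 of the 9 genes met the criteria, Chat, Slc18a3, Chrm2 and Chrm5, against 5.41% of all genes. Without WAS replicates 1 and 3 together it was 1, Slc5a7, against 2.3%, and under edgeR's own filter on low counts 0 of 8, against 2.27%. Fitted changes were above 0 for 5 genes and below 0 for 4, with a median of 0.02, and the median of all genes was 0.00084.

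Chrm5 (chr2:112479171-112480769, minus strand), a receptor known from dopamine neurons of the midbrain, was higher in the libraries labelled WAS by the criteria, though not after adjustment over all genes. It had 22, 7 and 14 counts in the libraries labelled WAS against 2, 3 and 4 in those labelled control. Each library labelled WAS was above each labelled control, with the highest value in WAS replicate 1 and the lowest of the 3 in WAS replicate 2. The mean was 1.45 ± 0.715 CPM (SD, n = 3) against 0.293 ± 0.105 CPM (SD, n = 3). The fit gave a log2 change of 2.23 (SE 0.63, unadjusted p = 0.00435, adjusted p = 0.515), a 4.69-fold difference with a 95% interval of 1.81 to 12.2. The exact two-sided permutation test on CPM gave p = 0.1, the smallest value that 3 libraries against 3 allow.

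The depth behind Chrm5 was low. The exact Poisson interval for WAS replicate 1, 1.37 to 3.31 CPM, lay above those of the control libraries, of which the highest bound was 1.03 CPM. That of WAS replicate 2, 0.304 to 1.56 CPM, overlapped the intervals of all control libraries, and that of WAS replicate 3, 0.767 to 2.35 CPM, those of control replicates 2 and 3. Chrm5 was not tested under edgeR's own filter on low counts. Without WAS replicates 1 and 3 together the fitted log2 change was 1.30 (unadjusted p = 0.202), and without WAS replicate 2 it was 2.53 (adjusted p = 0.0478), in a fit in which 491 of all genes passed an adjusted p of 0.05.

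Genes of midbrain dopamine neurons were high in the same libraries as Chrm5. Slc6a3, the dopamine transporter, had 107, 0 and 100 counts in the libraries labelled WAS against 0, 3 and 3 in those labelled control. Th, which makes the dopamine precursor, had 75, 43 and 146 counts against 13, 19 and 34. En1, a midbrain and hindbrain transcription factor, had 124, 1 and 157 counts and was at 0 in each control library. Of the 6 midbrain and hindbrain markers tested, 5 met the criteria, all of them higher in the libraries labelled WAS. Among them, Slc6a3, En1 and En2 passed the filter on low counts only through WAS replicates 1 and 3. Their direction was thus partly fixed by the filter, and the count of markers is a description and not a test. In WAS replicate 2, where Slc6a3 was at 0 and En1 at 1, Chrm5 had 7 counts, and Th was above each control library as Chrm5 was. Markers of other regions were also high in WAS replicates 1 and 3. Summed thalamus markers were at 531, 272 and 462 CPM in the libraries labelled WAS against 257 to 267 CPM in controls. Summed hippocampus markers were at 140, 57.0 and 105 CPM against 32.5 to 60.0 CPM. The part of midbrain, thalamus or hippocampus tissue in the Chrm5 counts was not tested.

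**Figure D4:**
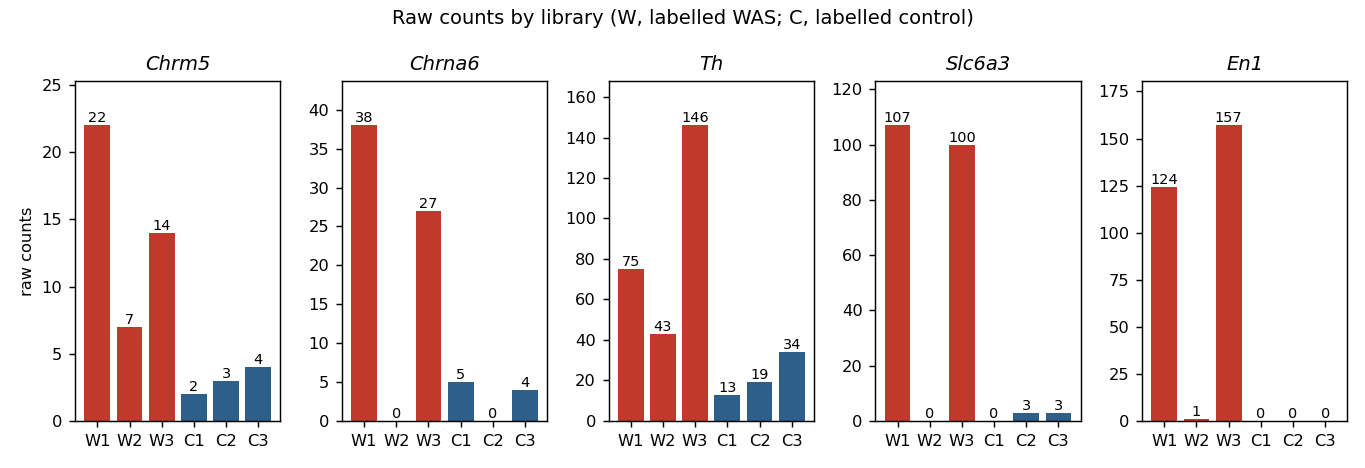
Raw counts (y axes, from 0, scaled separately) of Chrm5, the nicotinic subunit gene Chrna6 and the midbrain genes Th, Slc6a3 and En1 in each library, red for labelled WAS (W) and blue for labelled control (C). Chrna6, Slc6a3 and En1 were high in WAS replicates 1 and 3 only, whereas Chrm5, with 7 counts, and Th, with 43, were also above the control libraries in WAS replicate 2.

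Chrm1 (chr19:8663789-8683587, plus strand), the main Gq-coupled receptor of cortical and hippocampal pyramidal cells, had 1042, 1039 and 1008 counts in the libraries labelled WAS against 1134, 1397 and 1113 in those labelled control. The groups overlapped in CPM, since WAS replicate 2 was above control replicates 1 and 3. The mean was 106 ± 5.97 CPM (SD, n = 3) with WAS against 118 ± 14.4 CPM (SD, n = 3) in controls. On the log2 scale the difference was -0.20 (SE 0.10, 95% interval -0.42 to 0.03, adjusted p = 0.729). It was -0.092 without control replicate 2, -0.27 without control replicate 1 (unadjusted p = 0.0418) and -0.25 without WAS replicate 2 (unadjusted p = 0.0381). Chrm1 took between 52.2% and 56.8% of the counts of the 5 muscarinic genes in the libraries labelled WAS and between 51.7% and 58.5% in those labelled control. An exon of the noncoding gene Gm22820 on the opposite strand overlaps Chrm1.

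Chrm3 (chr13:9875486-10360847, minus strand), also coupled to Gq, had 556, 532 and 474 counts in the libraries labelled WAS against 716, 719 and 510 in those labelled control. Control replicate 3 lay below WAS replicates 1 and 2. The mean was 53.4 ± 5.26 CPM (SD, n = 3) against 62.9 ± 10.2 CPM (SD, n = 3), with a log2 fold change of -0.27 (SE 0.13, 95% interval -0.55 to 0.0070, adjusted p = 0.697). Without control replicate 3 it was -0.39 (unadjusted p = 0.00670). With all 6 libraries, the intervals of both Chrm1 and Chrm3 kept the fold change under 1.5 in either direction. Summed levels of the neuron markers Snap25, Syt1, Rbfox3 and Tubb3 were 4089 to 4678 CPM against 4781 to 5352 CPM, with log2 fold changes from -0.36 for Rbfox3 to -0.012 for Tubb3, and 0 of the 4 met the criteria. Of 8 cortex markers, all had fitted changes below 0 and 2 met the criteria, with summed levels of 797 to 868 CPM against 870.1 to 1032 CPM. Of 6 hippocampus markers, all were above 0 and 2 met the criteria, with summed levels of 57.0 to 140 CPM against 32.5 to 60.0 CPM. The part of these cells and regions in the levels of Chrm1 and Chrm3 was not tested.

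Chrm2 (chr6:36388084-36528414, plus strand), a Gi-coupled receptor and the autoreceptor of many cholinergic terminals, had 134, 55 and 127 counts in the libraries labelled WAS against 108, 50 and 96 in those labelled control. Replicate 2 was the lowest library in both groups. The mean was 10.7 ± 4.09 CPM (SD, n = 3) against 8.24 ± 2.98 CPM (SD, n = 3), and the fitted log2 change was 0.34 (SE 0.33, 95% interval -0.39 to 1.07, adjusted p = 0.896). Without WAS replicate 2 it was 0.62 (unadjusted p = 0.0383, adjusted p = 0.321), which met the criteria. Without WAS replicates 1 and 3 together it was -0.51. The genes with the most similar profile were Il21r, Alms1-ps2 and Armcx6, at root mean square differences of 0.085, 0.10 and 0.10. An exon of the noncoding gene 9330158H04Rik on the opposite strand overlaps Chrm2.

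Chrm4 (chr2:91927249-91928688, plus strand), the Gi-coupled receptor of striatal projection neurons of the direct pathway and of cholinergic interneurons, was nearly level. It had 241, 195 and 231 counts in the libraries labelled WAS against 235, 218 and 220 in those labelled control. The mean was 22.7 ± 1.47 CPM (SD, n = 3) against 21.8 ± 0.719 CPM (SD, n = 3). The fitted log2 change was 0.02 (SE 0.12, 95% interval -0.24 to 0.29, adjusted p = 0.982). The difference between its highest and lowest library was 0.18 on the log2 CPM scale, and 95.7% of the genes tested had a wider one. Drd1, the dopamine receptor of the same projection neurons, had 350, 3380 and 608 counts in the libraries labelled WAS against between 2026 and 2678 in those labelled control. Chrm4 was thus highest in the library in which Drd1 was lowest.

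The gene models of Chrm4 and Chrm5 end at different places in different annotations. The RefSeq model of Chrm4 runs 1147 bases past the 3′ end of the GENCODE M21 model, and that of Chrm5 438 bases past it. The corresponding distance was 224 bases for Chrm2, 19 for Chrm1 and at most 1 for the other 5 genes. Because QuantSeq reads lie near the 3′ end and the annotation used for counting is not given in the sources used here, it was not tested how many reads of these genes were counted.

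**Figure D5:**
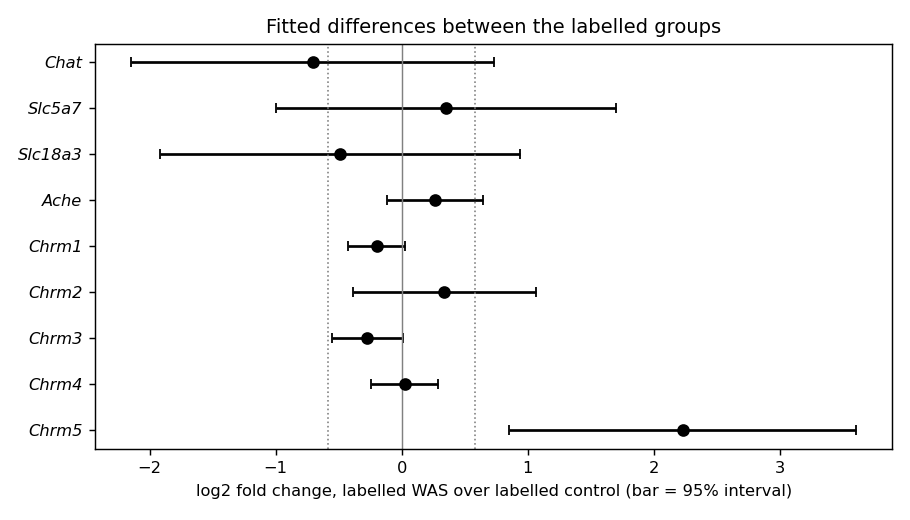
Log2 fold change of the libraries labelled WAS over those labelled control for each gene (x axis), with the 95% interval of the fit as bars and dotted lines at a fold change of 1.5 in each direction. The interval of Chrm5 lies above 0, those of Chat, Slc18a3, Chrm5 and Slc5a7 are the widest, and that of Chrm4 runs from -0.24 to 0.29.

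Genes that mark cholinergic neurons showed no called difference between the groups. Of 8 genes on this list, 6 were tested, 2 had a fitted change above 0 and 4 below, and 0 met the criteria, with a median of -0.11. The sign of the median rested on single libraries, since it was 0.75 without control replicate 3, 0.15 without WAS replicate 1 and 0.016 without WAS replicate 3. Lhx8, a LIM homeodomain factor of forebrain cholinergic neurons, had 0, 34 and 3 counts in the libraries labelled WAS against 2, 4 and 37 in those labelled control. It was highest in WAS replicate 2 and control replicate 3, the libraries in which Chat was highest. Zic4, the other abundant gene of the list beside Isl1, had 50, 53 and 46 counts against 62, 21 and 75. Slc10a4, a vesicle protein of cholinergic and monoamine neurons, had 30, 50 and 74 counts against 24, 24 and 66.

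In the list of choline supply and cholinesterase partners, 11 of 13 genes were tested, with 7 above 0, 4 below and a median of 0.03. Slc44a5, a choline transporter-like gene, was the 1 gene past the criteria, with 84, 47 and 124 counts in the libraries labelled WAS against 46, 50 and 36 in those labelled control. The fit gave a log2 change of 0.98 (SE 0.31, unadjusted p = 0.00940, adjusted p = 0.564). Scaled to the library total, each library labelled WAS was above each labelled control, with WAS replicate 2 at 5.08 CPM and the highest control library at 4.82 CPM. Summed thalamus markers were at 531, 272 and 462 CPM in the libraries labelled WAS and at 257 to 267 CPM in controls, with 3 of 6 past the criteria, and summed hippocampus markers were also highest in WAS replicates 1 and 3. The part of these regions in the counts of Slc44a5 was not tested. Prima1, which anchors acetylcholinesterase at the membrane, had 3, 11 and 10 counts against 13, 16 and 16. The most abundant genes, Acly and Gpcpd1, had log2 fold changes of 0.02 and -0.33 (SEs 0.09 and 0.12).

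Of 16 nicotinic receptor subunit genes, 10 were tested, with 6 above 0, 4 below and a median of 0.19. Chrna6, a subunit of midbrain dopamine neurons, met the criteria with 38, 0 and 27 counts in the libraries labelled WAS against 5, 0 and 4 in those labelled control. On the log2 scale the difference was 2.81 (SE 1.09, unadjusted p = 0.0249), and the high libraries were those in which Slc6a3 and En1 were high. Chrna6 passed the filter on low counts only through these libraries, WAS replicates 1 and 3, so its direction was partly fixed by the filter. Chrna4 and Chrnb2, the most abundant subunit genes and partners in the main brain receptor, had log2 fold changes of 0.52 and 0.15 (SEs 0.21 and 0.17). For Chrna4 the unadjusted p by edgeR was 0.0312. Its levels were 46.6, 23.0 and 32.6 CPM in the libraries labelled WAS against 20.7 to 25.1 CPM in those labelled control, so it was also highest in WAS replicates 1 and 3. Chrna10, noted after its values had been seen, had 4, 3 and 4 counts in the libraries labelled WAS and 0 in each labelled control, and was too low to be tested. Of 4 nicotinic receptor partners, 3 were above 0, 1 was below and 0 met the criteria, with a median of 0.14. Tmem35, a chaperone of nicotinic receptors, was at 0.27 and Lynx1, which binds to them, at -0.22 (SEs 0.09 and 0.10). The unadjusted p by edgeR was 0.0130 for Tmem35. In CPM, each library labelled WAS was above each labelled control for Tmem35, as for 8.42% of all genes tested.

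Downstream of the Gq-coupled receptors, 12 of 12 genes were tested, 4 were above 0 and 8 below, and 0 met the criteria, with a median of -0.10. By edgeR, 4 of the 12 had an unadjusted p under 0.05, against 7.25% of all genes tested. These were Plcb1, Itpr1, Prkca and Kcnq5, each with a fitted change below 0. Plcb1, a phospholipase C that Gq activates, had 3053, 4018 and 2831 counts in the libraries labelled WAS against 4440, 4803 and 4048 in those labelled control. Scaled to the library total, WAS replicate 2 lay within the control range, and the fitted log2 change was -0.38 (SE 0.14, unadjusted p = 0.0222). Gnaq, the alpha subunit of Gq, was at -0.02 (SE 0.08). On the side of Gi and Go, 11 of 12 genes were tested, 3 were above 0 and 8 below, and 0 met the criteria, with a median of -0.13. Of the 11, 2 had an unadjusted p under 0.05, Kcnj3 and Rgs4, both with a fitted change below 0. Rgs4, a regulator that shortens Gi and Gq signals, was at -0.53 (SE 0.18, unadjusted p = 0.0116) and Gnao1, the alpha subunit of Go, at -0.08 (SE 0.08). In CPM, Plcb1, Itpr1, Kcnq5 and Rgs4 were lower in WAS replicates 1 and 3 than in the other 4 libraries, as the striatum markers were. The part of striatal tissue in these genes was not tested.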

How the data were processed

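QuantSeq libraries of 3 mice labelled WAS and 3 labelled control were analysed; the labels call the replicates biological. The authors used Bowtie2 for alignment and Bedtools for counting, with reads of several alignments kept, and the deposited tables hold these raw counts without the quantile normalization of the study. Build mm10 is taken from the submitters' processing notes; annotation and strand setting are not given in the sources used here. Genes with a mean log2(quantile-normalized count + 1) of at least 2 were kept, which left 15237 of 23282 entries. The WAS and control libraries were compared with edgeR 4.0.16 (TMM scaling, quasi-likelihood test, Benjamini-Hochberg adjustment), checked first on simulated data. The criteria, after the study, were a fold change of 1.5 or more and p under 0.05 before adjustment. Single genes were also compared by an exact permutation test on CPM. Alternatives were total-count scaling, limma 3.58.1, DESeq2 1.42.0, other filters, a replicate block and leaving out libraries. Gene positions are from GENCODE M21 (GRCm38), and second gene models (all 9 genes) and promoters (8 of 9) from RefSeq (GRCm38.p6). Named were the 9 genes in full and, per pathway list, the 2 most abundant genes and those past the criteria, and, for the 3 of the 9 genes with the widest log2 CPM range and a mean of at least 5 CPM, the 3 nearest profiles. Others were chosen after their values were seen. The members and gene lists were chosen with earlier results of these data known. Some items are not reported here.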

Additional observations from a re-analysis of the deposited data

How the results depend on the processing

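Over 13 alternatives for each gene (for Chrm5 the 11 that gave an adjusted p), 104 of 115 values kept their direction and their side of an adjusted p of 0.05. Some of these crossed the criteria, as given below. The log2 fold change of Slc5a7 turned to -0.30 with limma, which also gave -1.40 for Chat and -1.08 for Slc18a3, and to -0.058 with the replicate block, and Chrm4 turned to -0.089 without WAS replicates 1 and 3 together. That setting, chosen after seeing the data, also gave 0.42 for Chat, 0.49 for Slc18a3 and -0.51 for Chrm2, ended the call of Chrm5 (1.30, unadjusted p = 0.202), brought Slc5a7 past the criteria (1.45), and gave list medians of -0.10 for nicotinic subunits, -0.051 for nicotinic partners and -0.069 for Gi and Go signalling. Leaving out 1 library at a time gave -1.95 to -0.17 for Chat, -0.85 to 0.86 for Slc5a7, -1.41 to 0.045 for Slc18a3, 0.13 to 0.46 for Ache, -0.27 to -0.092 for Chrm1, -0.39 to -0.19 for Chrm3, 0.07 to 0.62 for Chrm2, -0.019 to 0.073 for Chrm4 (-0.0026 without control replicate 2) and 1.81 to 2.53 for Chrm5. It also gave medians of -0.57 to 0.75 for identity genes, 0.014 to 0.142 for choline supply, -0.036 to 0.22 for nicotinic subunits and -0.15 to -0.064 for Gi and Go signalling. The adjusted p of Chrm5 ran from 0.0478 to 0.9997 over the alternatives. The choline supply median was 0.16 without a filter. Of the 9 genes, 1 to 4 met the criteria when 1 library was left out, against 264 to 825 of all genes, the most without WAS replicate 2, where Chat, Slc18a3, Chrm2 and Chrm5 met them (5.41% of all genes) and 491 genes passed after adjustment. With edgeR's own filter, 0 of the 8 genes left met them. The causes were not tested. Deviations of same-numbered libraries correlated at 0.0671, 0.0851 and 0.0873, so the numbers were not read as a pairing; each library correlated best with its own number, and the block gave 417 genes against 380 past the criteria, 50 against 0 after adjustment, and 1 of the 9 past the criteria, Chrm5, with Chrm1 (0.0450) and Chrm3 (0.0164) also under an unadjusted p of 0.05 at fold changes under 1.5. Without a filter Chrm3 was at an unadjusted p of 0.0399. Counts below about 10, as for Chrm5 and Slc18a3 in some libraries, limit those values.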
